A study of Homo sapiens with 18 samples.

Results

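The 45 genes described here encode the DNA replication machinery, and they were chosen by name, as the gene symbols of this set found in the deposited count tables of both cell lines. All 45 were found in each table, of 18978 genes listed for H1299 and 20335 for A549, and all 45 passed the filter on low counts in both lines. They fall into 6 roles: 9 licensing genes, 12 genes of the replicative helicase, 9 of the polymerases, 6 of the sliding clamp and its loader, 5 of strand binding and ligation, and 4 of nucleotide supply. In dividing cells, the origin recognition complex, CDC6 and CDT1 load the MCM ring onto DNA in G1. CDC45 and the GINS complex then turn the ring into an active helicase in S phase, and polymerases, clamp, clamp loader, single-strand binding protein, flap nuclease and ligase copy and join the strands. Many of these genes are textbook targets of E2F transcription factors and are transcribed in waves as cells pass from G1 into S phase, and YAP and TAZ are coactivators of the TEAD transcription factors that are known to promote proliferation.

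RNA was sequenced from 2 human non-small cell lung cancer lines, H1299 and A549, after transient knockdown with siRNA SMARTpools, each a mixture of siRNAs against 1 transcript. In each line, siYAP cells received the pool against YAP (gene YAP1), siTAZ cells the pool against TAZ (gene WWTR1) and siControl cells a control siRNA, all at 30 nM. RNA was taken after 48 h, and every group, controls included, had been without serum for the last 18 h. Each of the 6 groups had 3 libraries. The medium was RPMI-1640 for H1299 but DMEM for A549, and each line has its own count table, so the effects of line, medium and experiment cannot be told apart. Whether replicates were separate cultures is not stated in the labels, and p-values therefore measure only how far these libraries spread, which can be technical.

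H1299 libraries held 16.8 to 20.8 M assigned reads and A549 libraries 10.7 to 44.98 M. Counts of the 45 genes ranged over the libraries from 15 (POLE2, in A549) to 12351. Levels are given as CPM, counts per M assigned reads after TMM scaling, and each set of 3 values follows replicates 1, 2 and 3. YAP1 stood at 12.8, 19.6 and 11.7 CPM in H1299 siYAP libraries and 83.6, 83.8 and 77.9 CPM in siControl libraries, a log2 fold change of -2.48 ± 0.15, edgeR adjusted p = 2.6e-06. WWTR1 stood at 36.1, 82.7 and 29.05 CPM in H1299 siTAZ libraries and 265, 276 and 229 CPM in siControl libraries (-2.38 ± 0.28, edgeR adjusted p = 0.000334), so the transcript was cut least in siTAZ replicate 2. In A549, YAP1 stood at 16.99, 15.5 and 19.5 CPM in siYAP and 59.6, 56.9 and 58.3 CPM in siControl libraries (-1.78 ± 0.059, edgeR adjusted p = 3.05e-23), and WWTR1 at 70.7, 50.9 and 51.6 CPM in siTAZ and 174, 179.8 and 176 CPM in siControl libraries (-1.63 ± 0.059, edgeR adjusted p = 9.32e-22). Neither pool gave a call for the other transcript, with log2 fold changes of 0.30 ± 0.13 for YAP1 in H1299 siTAZ, 0.037 ± 0.049 for YAP1 in A549 siTAZ, -0.51 ± 0.26 for WWTR1 in H1299 siYAP and -0.16 ± 0.055 for WWTR1 in A549 siYAP. WWTR1 was nonetheless below every siControl library in all siYAP libraries of both lines, at 173, 203 and 167 CPM in H1299 and 158, 162 and 153 CPM in A549 siYAP libraries, and YAP1 was above every siControl library in all H1299 siTAZ libraries, at 96.5, 106 and 100.5 CPM. The epithelial keratins KRT8 and KRT18 were counted in every library, and the other epithelial markers differed between the lines. In H1299, KRT19 and EPCAM reached at most 0.61 and 0.66 CPM, and CDH1 was not listed. In A549, KRT19 stood at 227 to 314 CPM, CDH1 at 41 to 70.1 CPM and EPCAM at 0.84 to 4.38 CPM. The 10 markers of immune, endothelial and fibroblast cells together summed to 5.39 to 7.84 CPM in H1299 siYAP, 5.22 to 6.53 CPM in siTAZ and 3.16 to 4.04 CPM in siControl libraries, and to at most 2.52 CPM in any A549 library. Only 3 of the 10 in H1299 and 2 in A549 passed the filter on low counts, and of the 3 in H1299 PDGFRB was called higher after both knockdowns and VWF after siTAZ. The part of these few reads in the results was not tested.

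The promoters of 4 of the genes are shown because ORC1, CDC6 and MCM6 were the genes that passed the test between siYAP and siTAZ in H1299, and RPA1 passed it in no comparison. The sequences are RefSeq promoters on GRCh38.p14, from 250 bases before to 50 after the start of the gene, read 5′ to 3′ on the strand of the gene. ORC1 lies at chr1:52404374-52404673 (minus strand), CDC6 at chr17:40287629-40287928 (plus strand), MCM6 at chr2:135876394-135876693 (minus strand) and RPA1 at chr17:1829755-1830054 (plus strand). Capitals mark matches, on either strand, to 1 of 4 E2F motif words (TTTGGCGC, TTTCGCGC, TTTCCCGC, TTTGCCGC).
ORC1: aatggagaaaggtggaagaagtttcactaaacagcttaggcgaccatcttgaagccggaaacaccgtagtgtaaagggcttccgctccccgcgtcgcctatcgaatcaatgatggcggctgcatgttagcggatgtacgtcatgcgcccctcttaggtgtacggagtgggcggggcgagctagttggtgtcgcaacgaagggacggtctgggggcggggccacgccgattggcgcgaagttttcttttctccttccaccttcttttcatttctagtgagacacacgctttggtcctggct
CDC6: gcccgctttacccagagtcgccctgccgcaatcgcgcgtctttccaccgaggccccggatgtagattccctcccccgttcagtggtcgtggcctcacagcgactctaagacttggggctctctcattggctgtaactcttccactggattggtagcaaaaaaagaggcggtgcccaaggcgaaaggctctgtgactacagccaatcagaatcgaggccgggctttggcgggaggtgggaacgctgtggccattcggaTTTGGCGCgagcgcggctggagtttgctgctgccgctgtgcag
MCM6: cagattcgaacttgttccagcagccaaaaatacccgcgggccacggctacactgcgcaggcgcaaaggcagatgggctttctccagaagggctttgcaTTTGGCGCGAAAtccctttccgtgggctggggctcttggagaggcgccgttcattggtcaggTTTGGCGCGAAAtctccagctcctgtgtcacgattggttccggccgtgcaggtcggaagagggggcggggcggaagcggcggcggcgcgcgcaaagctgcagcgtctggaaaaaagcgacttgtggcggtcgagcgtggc
RPA1: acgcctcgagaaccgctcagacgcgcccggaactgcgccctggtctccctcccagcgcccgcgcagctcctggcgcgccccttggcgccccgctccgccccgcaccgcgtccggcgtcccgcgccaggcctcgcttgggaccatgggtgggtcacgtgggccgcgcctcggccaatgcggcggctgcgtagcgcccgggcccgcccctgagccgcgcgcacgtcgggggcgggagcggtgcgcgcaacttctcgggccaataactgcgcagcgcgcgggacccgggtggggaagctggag

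MCM6 held 4 matching words in 2 stretches, each a pair of words on opposite strands that overlap, CDC6 held 1, and ORC1 and RPA1 held none in this window. A promoter was matched by symbol for 39 of the 45 genes, and MCM4, MCM5, GINS4, POLD3, RPA2 and RPA3 had no entry. An E2F word stood in 18 of the 39 (46.2%), against 3.33% of 27305 promoters of the same length and 1 of 22 promoters of a comparison list of mitosis genes (4.55%). The cell cycle homology region, the CHR, known from promoters of mitosis genes and searched as TTTGAA and TTCGAA, stood in 2 of the 39 (5.13%), MCM6 and RRM1, against 16.6% of all promoters and 17 of the 22 mitosis promoters (77.3%). CCAAT, the NF-Y box, stood in 22 of the 39 (56.4%), against 35.7% of all promoters and 77.3% of the mitosis promoters. The TEAD word CATTCC stood in 4 of the 39, ORC6, GINS1, POLA2 and PRIM1 (10.3%), against 14.0% of all promoters and 22.7% of the mitosis promoters. All motifs were searched on both strands, each was counted by itself, and E2F words can overlap one another. These are matches of letters and not binding sites.

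In H1299, replication genes were lower after either knockdown, and most of the machinery moved, from origin licensing to nucleotide supply. After siYAP, 38 of the 45 genes fell and 0 rose at an adjusted p below 0.05, where 8.75% of all genes tested fell and 7.89% rose. After siTAZ, 42 of 45 fell and 0 rose, where 12.4% of all genes fell and 10.9% rose. None of the 45 was higher at an unadjusted p below 0.05 in either comparison with edgeR, and DESeq2 also called 0 higher. The median log2 fold change of the 45 was -0.47 after siYAP and -0.73 after siTAZ, against 0.0063 and 0.0082 over all genes tested. These comparisons share the siControl libraries. In bulk RNA, fewer cells in S phase and less RNA per cell cannot be told apart. The share of reads from mitochondrially encoded genes was 11.98, 11.4 and 11.3% in siYAP libraries, 11.5, 8.63 and 11.5% in siTAZ libraries and 9.47, 8.01 and 11.1% in siControl libraries, so all siYAP libraries were above all siControl libraries and siControl 2 was the lowest. Its part in the result was not tested.

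Summed over the 45 genes, the level was 2724, 3293 and 2781 CPM in siYAP libraries, 2699.7, 2657 and 2408 CPM in siTAZ libraries and 4544, 3609 and 4385 CPM in siControl libraries. The siControl libraries were all above the libraries of both knockdowns, and single genes stood below siControl without overlap for 35 of 45 after siYAP, where 18.3% of all genes did, and for 44 of 45 after siTAZ, where 20.1% did. Among the sums, siControl 2 was the lowest of its group and siYAP 2 the highest of its own. As shares of the siControl mean, nucleotide supply was lowest, at 59.2% in siYAP and 51.5% in siTAZ, followed by the helicase at 66.6% and 57.3%. Licensing genes stood at 78.5% in siYAP and 62.5% in siTAZ, the widest gap between the knockdowns of the 6 roles. The siYAP count of 38 depended on single libraries: it was 16 without siYAP 1, 17 without siYAP 3, 15 without siControl 1, 20 without siControl 3, and 0 without all libraries numbered 1 or all numbered 3 (29 at an unadjusted p below 0.05 in each), while the median stayed between -0.67 and -0.34. The siTAZ count of 42 was 6 without all libraries numbered 3 (38 at an unadjusted p below 0.05) and 31 or more without any other.

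**Figure D1:**
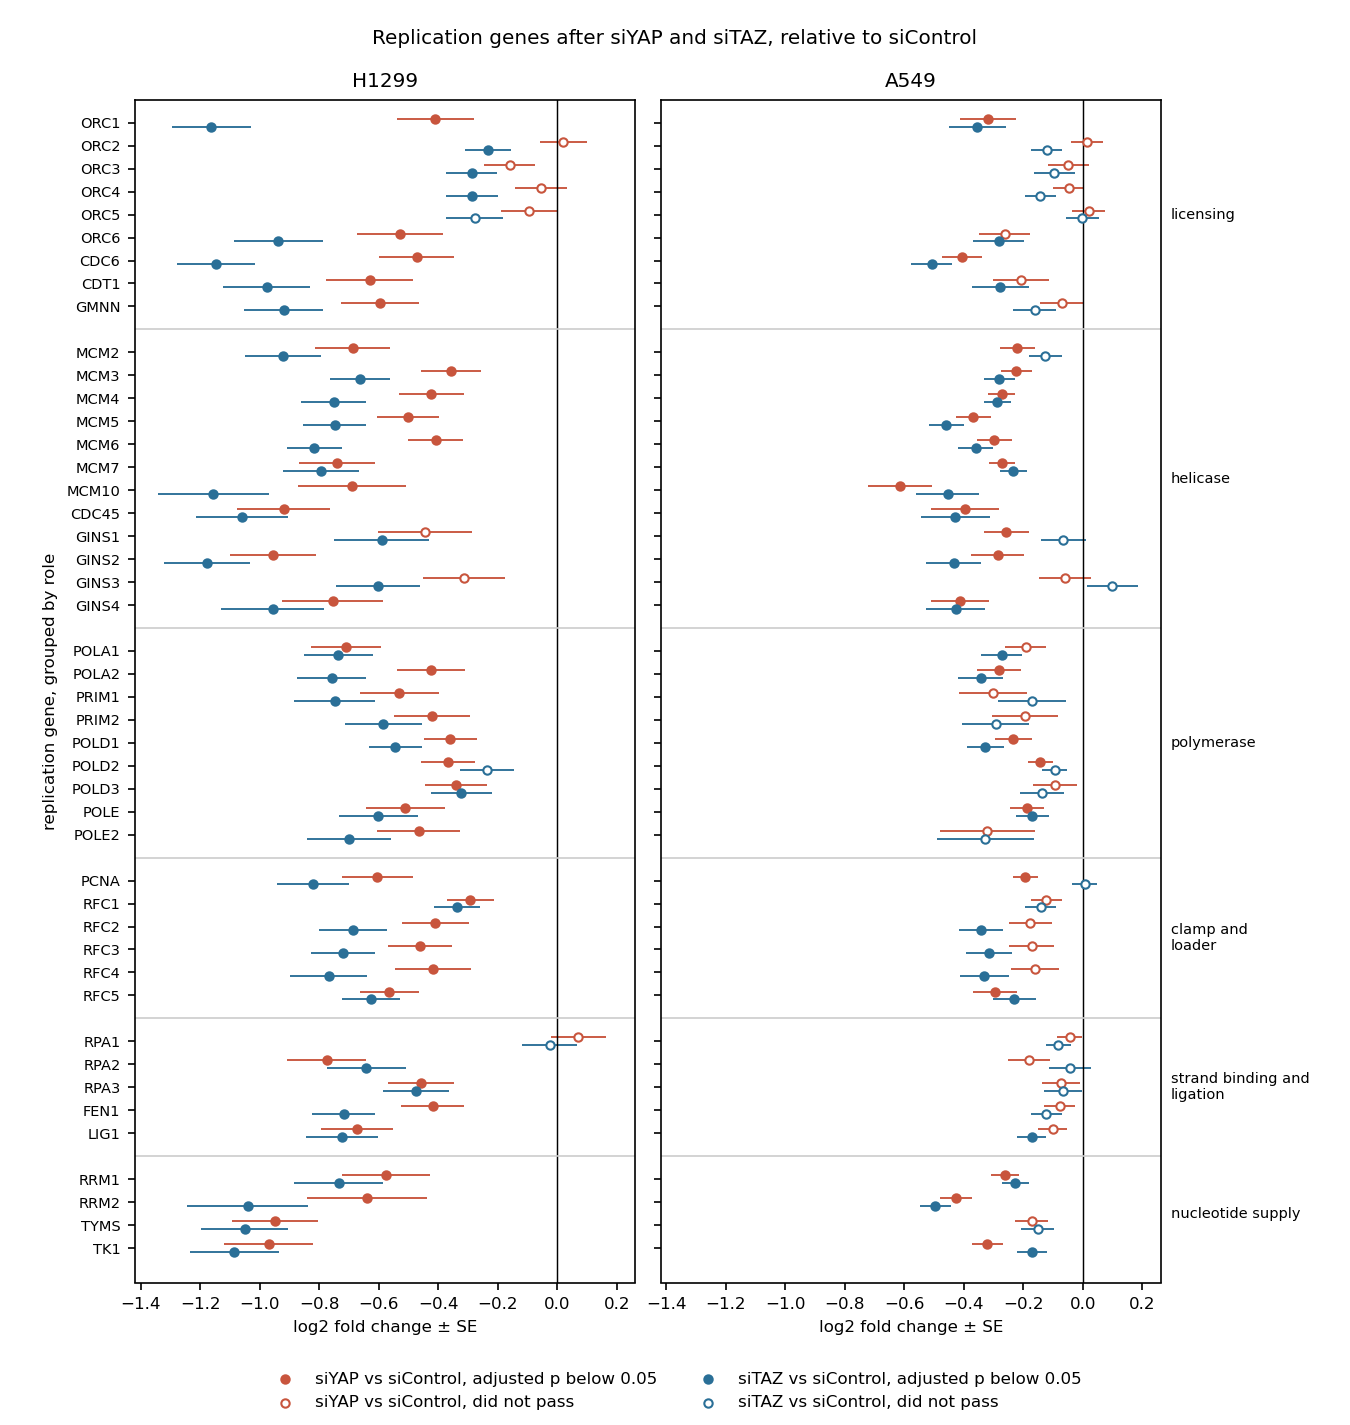
Log2 fold change (x axis, ± SE of the edgeR fit) of each of the 45 replication genes (y axis, grouped by role) after siYAP and after siTAZ relative to siControl, in H1299 on the left and A549 on the right, with filled points for an adjusted p below 0.05. Nearly all points lie left of 0, further out in H1299 than in A549, and RPA1 and ORC2 lie nearest to 0 in H1299.

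**Figure D2:**
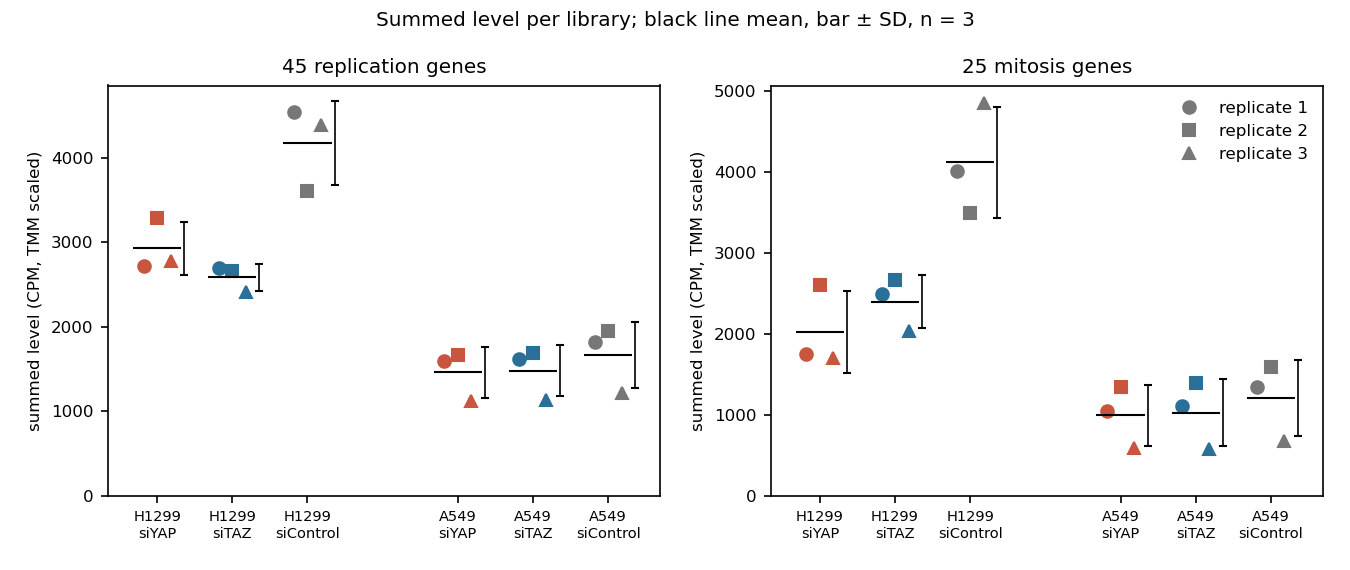
Summed CPM (y axis) of the 45 replication genes on the left and of 25 mitosis genes on the right, in each library of the 6 groups (x axis), with the mean as a line and ± SD as a bar (n = 3). In H1299 the siControl libraries lie above both knockdowns, and in A549 replicate 3 (triangles) is the lowest library of every group.

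Among the licensing genes in H1299, CDC6, CDT1, GMNN, ORC1 and ORC6 fell after both knockdowns, and 4 of the 6 origin recognition subunits did not pass after siYAP. CDC6, the ATPase that helps load the MCM ring, stood at 42.5, 49.9 and 45.7 CPM after siYAP, 31.99, 27.2 and 27.3 CPM after siTAZ and 74.9, 50.7 and 65.9 CPM in siControl. Neither knockdown overlapped siControl, though the highest siYAP library came within 1 CPM of the lowest siControl library. CDC6 fell by 0.47 ± 0.13 log2 units after siYAP (edgeR adjusted p = 0.0231) and by 1.15 ± 0.13 after siTAZ (edgeR adjusted p = 0.000325). ORC1, the largest and cell-cycle-regulated subunit of the origin recognition complex, stood at 30.3, 39.9 and 29.9 CPM after siYAP, 20.3, 20.2 and 18.8 CPM after siTAZ and 50.7, 36.7 and 45.4 CPM in siControl. The siYAP range overlapped that of siControl, and every siTAZ library was below every other. ORC1 fell by 0.41 ± 0.13 after siYAP (edgeR adjusted p = 0.0465) and by 1.16 ± 0.13 after siTAZ (edgeR adjusted p = 0.000325).

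CDT1, the MCM loading factor, geminin (GMNN), which inhibits it, and ORC6, the smallest origin subunit, also fell after both knockdowns, by 0.63 ± 0.15, 0.59 ± 0.13 and 0.53 ± 0.15 after siYAP and by 0.98 ± 0.15, 0.92 ± 0.13 and 0.94 ± 0.15 after siTAZ, so the loader and its inhibitor were lower together. The core origin subunits ORC2, ORC3, ORC4 and ORC5 did not pass after siYAP, with log2 fold changes of 0.021, -0.16, -0.053 and -0.095. After siTAZ, ORC2, ORC3 and ORC4 fell by 0.23 ± 0.079, 0.29 ± 0.086 and 0.29 ± 0.088. ORC5 had 26.97, 32.8 and 31.3 CPM after siYAP, 27.3, 26.5 and 26.5 CPM after siTAZ and 32.6, 30.2 and 34.4 CPM in siControl. The siTAZ libraries were below the siControl libraries without overlap, and yet the test was not passed (-0.28 ± 0.10, edgeR adjusted p = 0.0513). It passed under 6 of the other settings, among them DESeq2 and the replicate block, at -0.28 in both.

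All 12 helicase genes fell after siTAZ in H1299 and 10 of 12 after siYAP. MCM6, a subunit of the hexameric MCM2-7 ring, stood at 132, 152 and 136 CPM after siYAP, 106, 108 and 102 CPM after siTAZ and 197, 165 and 196 CPM in siControl. The 3 groups did not overlap, with siTAZ lowest and siYAP between. MCM6 fell by 0.41 ± 0.091 after siYAP (edgeR adjusted p = 0.0092) and by 0.82 ± 0.092 after siTAZ (edgeR adjusted p = 0.000325). The other 5 ring subunits fell by 0.36 (MCM3) to 0.74 (MCM7) after siYAP and by 0.66 (MCM3) to 0.92 (MCM2) after siTAZ. MCM3 itself had 143, 157 and 145 CPM after siYAP, 129.8, 115 and 115 CPM after siTAZ and 204, 162 and 205 CPM in siControl, again with no overlap among the 3 groups.

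MCM2 had 102, 122 and 99.5 CPM after siYAP, 102, 92.99 and 79.5 CPM after siTAZ and 202, 144 and 173 CPM in siControl, so the knockdowns overlapped each other but not siControl (-0.69 ± 0.13, edgeR adjusted p = 0.00377 for siYAP). GINS2, MCM10 and CDC45 had the largest changes of the helicase genes after siTAZ. GINS2, a GINS subunit, stood at 21.2, 27.7 and 23.1 CPM after siYAP, 21.7, 21.8 and 18.2 CPM after siTAZ and 53.3, 36.1 and 50.03 CPM in siControl, and fell by 0.95 ± 0.14 after siYAP and by 1.18 ± 0.14 after siTAZ (edgeR adjusted p = 0.00154 and 0.000415). CDC45, the helicase partner of MCM and GINS, fell by 0.92 ± 0.15 after siYAP and 1.06 ± 0.16 after siTAZ, and MCM10, an initiation factor, by 0.69 ± 0.18 and 1.16 ± 0.19. GINS1 showed the least change by p after siTAZ, with 8.07, 9.82 and 8.84 CPM after siYAP, 8.33, 7.73 and 8.13 CPM after siTAZ and 12.96, 9.12 and 14.3 CPM in siControl. Its low siControl 2 library lay inside the siYAP range and above the siTAZ range, and it fell after siTAZ (-0.59 ± 0.16, edgeR adjusted p = 0.0176) and did not pass after siYAP (-0.45 ± 0.16, edgeR adjusted p = 0.0687), where it passed with the replicate block (-0.44, edgeR adjusted p = 0.038). GINS3 was alike, at -0.60 ± 0.14 after siTAZ and -0.31 ± 0.14, not passed, after siYAP.

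Polymerase genes were lower by smaller amounts. All 9 fell after siYAP and 8 of 9 after siTAZ, with medians of -0.42 and -0.60. POLA2, the B subunit of the primase-polymerase complex, stood at 38.4, 49.8 and 43.2 CPM after siYAP, 36.9, 33.7 and 33.6 CPM after siTAZ and 67.1, 51.1 and 58.01 CPM in siControl, with siControl above both. POLA2 fell by 0.42 ± 0.11 after siYAP (edgeR adjusted p = 0.0237) and 0.76 ± 0.12 after siTAZ (edgeR adjusted p = 0.0011). POLA1, the catalytic subunit of the same complex, had 33.8, 40.9 and 32.3 CPM after siYAP, 38.5, 34.2 and 32.5 CPM after siTAZ and 65.5, 51.1 and 58.2 CPM in siControl. Its knockdown groups overlapped each other, and it fell by nearly the same amount in both, 0.71 ± 0.12 and 0.74 ± 0.12. PRIM1 and PRIM2, the primase subunits, fell by 0.53 ± 0.13 and 0.42 ± 0.13 after siYAP and by 0.75 ± 0.14 and 0.58 ± 0.13 after siTAZ. The leading-strand polymerase genes POLE and POLE2 fell by 0.51 ± 0.13 and 0.47 ± 0.14 after siYAP and by 0.60 ± 0.13 and 0.70 ± 0.14 after siTAZ. POLD2, an accessory subunit of polymerase delta, had 146, 161 and 165 CPM after siYAP, 157, 189.9 and 170.02 CPM after siTAZ and 208, 191 and 210.2 CPM in siControl. It fell after siYAP (-0.37 ± 0.091, edgeR adjusted p = 0.0158) and did not pass after siTAZ (-0.24 ± 0.091, edgeR adjusted p = 0.0736), where it passed with the replicate block (-0.24, edgeR adjusted p = 0.025), and siYAP against siTAZ did not separate it (-0.13 ± 0.091, edgeR adjusted p = 0.399).

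The clamp and all 5 clamp loader genes fell after both knockdowns in H1299. PCNA, the sliding clamp, stood at 58.95, 78.6 and 60.7 CPM after siYAP, 58.5, 59.3 and 52.9 CPM after siTAZ and 111, 86.04 and 104 CPM in siControl, with every siControl library above both knockdowns. PCNA fell by 0.60 ± 0.12 after siYAP (edgeR adjusted p = 0.00531) and by 0.82 ± 0.12 after siTAZ (edgeR adjusted p = 0.000968). RFC1, the large loader subunit, changed least by p, with 113, 118 and 108 CPM after siYAP, 114, 112 and 103 CPM after siTAZ and 143, 133 and 140.04 CPM in siControl. These ranges were narrow and siControl stood apart, with falls of 0.29 ± 0.078 and 0.34 ± 0.078. The small loader subunits RFC2 to RFC5 fell by 0.41 (RFC2) to 0.56 (RFC5) after siYAP and by 0.63 (RFC5) to 0.77 (RFC4) after siTAZ.

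Among genes of strand binding and ligation, RPA1 did not pass after either knockdown and the other 4 fell after both. RPA1, the large subunit of the single-strand binding protein, had 106, 124 and 114 CPM after siYAP, 103, 119 and 101 CPM after siTAZ and 114, 113 and 102 CPM in siControl, and the 3 groups overlapped. Its log2 fold change was 0.071 ± 0.093, edgeR adjusted p = 0.64 for siYAP, and -0.026 ± 0.093, edgeR adjusted p = 0.867 for siTAZ. Its partners RPA2 and RPA3 fell by 0.77 ± 0.13 and 0.46 ± 0.11 after siYAP and by 0.64 ± 0.13 and 0.47 ± 0.11 after siTAZ. FEN1, which removes the flaps of Okazaki fragments, had 47.02, 54.6 and 48.2 CPM after siYAP, 42.8, 39.8 and 39.2 CPM after siTAZ and 73.2, 56.1 and 70.8 CPM in siControl. FEN1 fell by 0.42 ± 0.11 and 0.72 ± 0.11 (edgeR adjusted p = 0.017 and 0.001), without overlap with siControl. LIG1, the ligase that seals these fragments, had 44.4, 56.1 and 41.2 CPM after siYAP, 44.6, 49.7 and 42.4 CPM after siTAZ and 82.9, 65.9 and 77.04 CPM in siControl, and fell by 0.67 ± 0.12 and 0.72 ± 0.12.

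The nucleotide supply genes had the lowest medians of the 6 roles in H1299, -0.79 after siYAP and -1.05 after siTAZ. TK1, the thymidine kinase of S phase, stood at 35.1, 49.01 and 36.3 CPM after siYAP, 38.5, 42.8 and 29.8 CPM after siTAZ and 85.6, 67.5 and 82.5 CPM in siControl. Every knockdown library was below every siControl library, and TK1 fell by 0.97 ± 0.15 and 1.08 ± 0.15 (edgeR adjusted p = 0.00174 and 0.000693). TYMS, thymidylate synthase, had 46.4, 64.6 and 47.8 CPM after siYAP, 48.4, 57.5 and 42.00 CPM after siTAZ and 110.3, 86.04 and 109.9 CPM in siControl, and fell by 0.95 ± 0.15 and 1.05 ± 0.15. The ribonucleotide reductase subunits differed in spread. RRM1, the large subunit, had 66.9, 90.8 and 63.1 CPM after siYAP, 73.7, 67.2 and 56.5 CPM after siTAZ and 127, 91.5 and 109.6 CPM in siControl, with siYAP 2 just below siControl 2, and fell by 0.57 ± 0.15 and 0.73 ± 0.15. RRM2, the S-phase subunit, fell by 0.64 ± 0.20 and 1.04 ± 0.20 with the largest SE of the 45, and its siYAP range overlapped siControl.

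**Figure D3:**
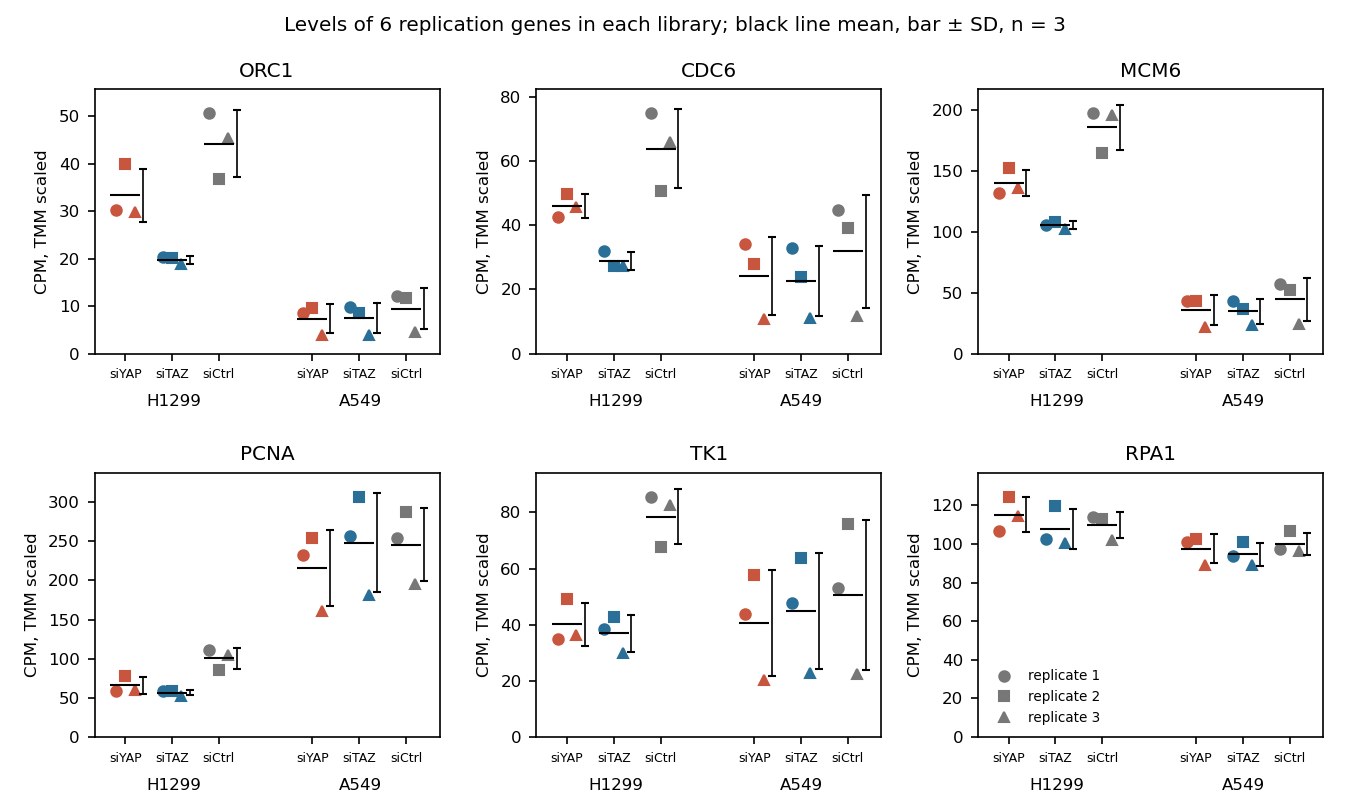
CPM (y axis, from 0) of ORC1, CDC6, MCM6, PCNA, TK1 and RPA1 in each library of the 6 groups (x axis; siCtrl is siControl), with the mean as a line and ± SD as a bar (n = 3). In H1299 the siTAZ libraries of ORC1, CDC6 and MCM6 lie below all siYAP libraries, the RPA1 groups overlap, and in A549 replicate 3 is the lowest library of every group.

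Set directly against each other in H1299, replication genes stood mostly higher in siYAP than in siTAZ. The median log2 difference over the 45 was 0.22, against 0.012 over all genes tested, and 42 of 45 were above 0 (17 at an unadjusted p below 0.05). Without siYAP 2, the highest siYAP library by the sum, the median was 0.12, with 31 of 45 above 0 and 6 at an unadjusted p below 0.05, and without all libraries numbered 2 it was 0.13, with 34 above 0 and 14 at that p. Without siTAZ 3 it was 0.15, with 35 above 0 and 8 at that p. At an adjusted p below 0.05, 0 of 45 were lower in siYAP than in siTAZ (0 at an unadjusted p below 0.05, and 0 by DESeq2), where 6.1% of all genes were. At the same adjusted p, 3 of 45 were higher, where 5.6% of all genes were, so such calls were about as frequent as over all genes. The 3 were the licensing genes ORC1 (0.75 ± 0.13, edgeR adjusted p = 0.00316) and CDC6 (0.67 ± 0.13, edgeR adjusted p = 0.00484) and the helicase gene MCM6 (0.41 ± 0.091, edgeR adjusted p = 0.0117). In each of them all siYAP libraries were above all siTAZ libraries, as they were for 16 of the 45, where 15.3% of all genes tested showed that. The next by p were ORC2, with 47.5, 50.1 and 49.6 CPM in siYAP and 40.5, 42.8 and 40.3 CPM in siTAZ libraries (0.25 ± 0.078, edgeR adjusted p = 0.0517), and MCM3 (0.31 ± 0.10, edgeR adjusted p = 0.0639). With the replicate number as a block, 10 of 45 were higher in siYAP: ORC1, CDC6 and MCM6, and also ORC2, ORC4, ORC6, MCM3, MCM4, FEN1 and POLA2. The count was 8 without siControl 2, 6 without all libraries numbered 2, 2 without siTAZ 3 or without all numbered 1, and 0 without all numbered 3. The share of all genes higher was not taken with the block, with libraries left out or at an unadjusted p. Those counts therefore have no background to set them against.

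By role, the median siYAP over siTAZ difference ran from 0.32 for licensing, 0.24 for the helicase and 0.24 for clamp and loader to 0.16 for the polymerases, 0.14 for nucleotide supply and 0.05 for strand binding and ligation. TK1 and TYMS, which had among the largest falls against siControl, had differences of only 0.12 ± 0.15 and 0.10 ± 0.15 and did not pass. A list of 25 mitosis genes, expressed mainly in G2 and mitosis, had the opposite sign in these libraries. Its summed level was 1751, 2601 and 1707 CPM in siYAP, 2493, 2662 and 2030.2 CPM in siTAZ and 4004, 3498 and 4852 CPM in siControl libraries, so siYAP and siTAZ overlapped. Against siControl, 25 of 25 mitosis genes fell after siYAP (median -1.05) and 24 of 25 after siTAZ (median -0.78). Directly between the knockdowns their median was -0.23, 23 of 25 were below 0, and 1, CENPF, a kinetochore protein gene, was lower in siYAP at an adjusted p below 0.05 (-0.56 ± 0.17, edgeR adjusted p = 0.0422), where 6.1% of all genes were. The difference between the replication and the mitosis list was not tested.

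**Figure D4:**
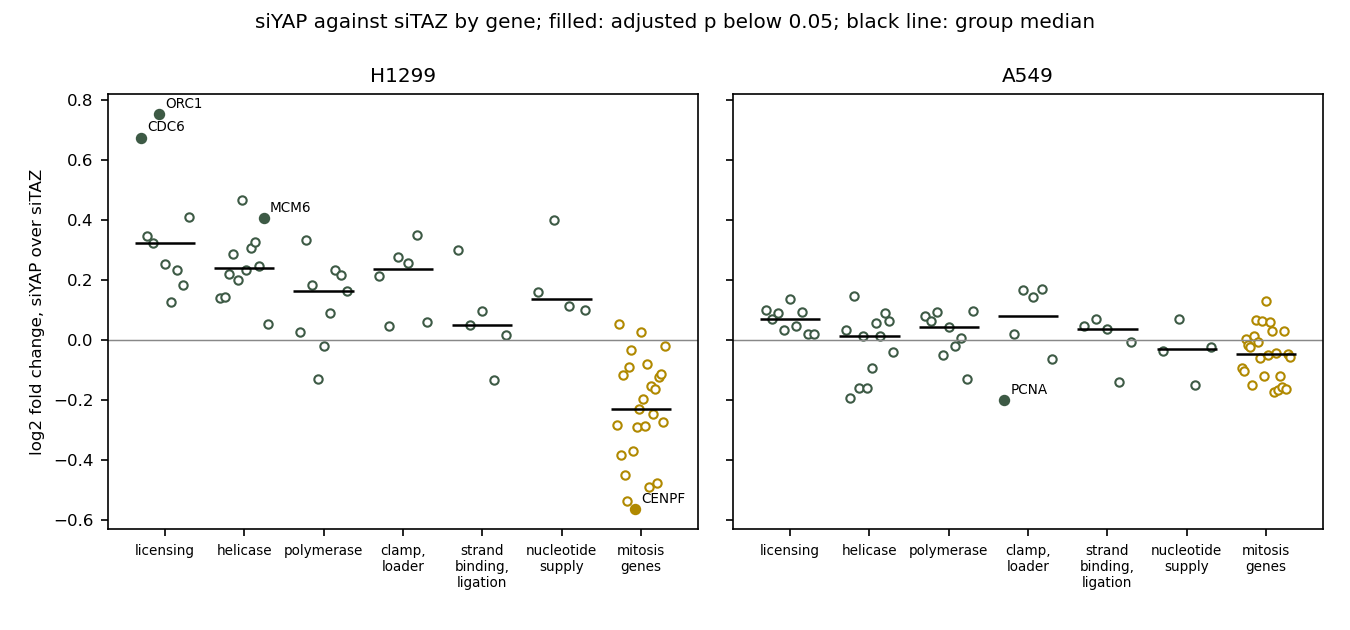
Log2 fold change of siYAP over siTAZ (y axis) of each replication gene by role and of 25 mitosis genes (x axis), in H1299 on the left and A549 on the right, with filled, named points for an adjusted p below 0.05 and a line at each group median. In H1299 the replication medians lie between 0.05 and 0.32 and the mitosis median at -0.23, and in A549 the medians lie between -0.047 for mitosis and 0.081 for clamp and loader.

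In A549, replication genes were lower after both knockdowns by smaller amounts. With the replicate number as a block, 22 of 45 fell and 0 rose after siYAP, where 3.17% of all genes tested fell and 2.5% rose, and 25 of 45 fell and 0 rose after siTAZ, where 6.12% fell and 7.21% rose. The medians were -0.21 after siYAP and -0.23 after siTAZ, against 0.0038 and 0.0028 over all genes, and no member was higher at an unadjusted p below 0.05, nor was any called higher by DESeq2. Summed over the 45, the level was 1602, 1663 and 1119 CPM in siYAP libraries, 1621, 1689 and 1134 CPM in siTAZ libraries and 1826, 1946 and 1221 CPM in siControl libraries. Replicate 3 was the lowest of each group, and every knockdown library was below the siControl library of its own number, while the groups overlapped throughout. The siYAP libraries were below siControl without overlap for 0 of 45, where 3.12% of all genes were, and 1 of 45, ORC4, had siTAZ below siControl without overlap, where 4.24% of all genes did. Within same-numbered pairs, siYAP was below siControl in 3 of 3 pairs for 30 of 45 genes and siTAZ for 32 of 45. The share of all genes lower in 3 of 3 pairs was not taken, so these counts have no background to set them against. Of the 13 mitochondrially encoded genes, 13 were higher at an unadjusted p below 0.05 after siYAP and 8 after siTAZ, with median log2 fold changes of 0.11 and 0.10. The share of all genes higher at that unadjusted p was not taken. At an adjusted p below 0.05 in edgeR, 2 and 1 of the 13 were higher, where 2.5% and 7.21% of all genes rose. The part of the mitochondrially encoded genes in the result was not tested. Without the block edgeR called 0 of 45 lower in either comparison, with 0 at an unadjusted p below 0.05.

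Replicate 3 was lower in these genes than over the whole library. Its log2 CPM (pseudocount 0.1 CPM) minus the mean of replicates 1 and 2, averaged over the 3 groups, had a median of -0.58 over the 45 genes, against -0.0077 over all genes tested. For 43 of 45 it was below 0 in all 3 groups, which held for 33.6% of all genes. MCM10, CDC6 and POLE2 had the lowest values, -1.63, -1.55 and -1.50, and ORC4 (-0.07) and RPA2 (-0.02) the values nearest to 0. The labels give no meaning for the replicate number, and its part in the results was not tested beyond the block. The siYAP count of 22 was 5 without siYAP 2, 7 without siControl 2, 11 without all libraries numbered 1 and 4 without all numbered 2, and DESeq2 called 10. The siTAZ count of 25 was 15 without siTAZ 2, 13 without siControl 2, 16 without all numbered 1 and 7 without all numbered 2, and DESeq2 called 13.

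**Figure D5:**
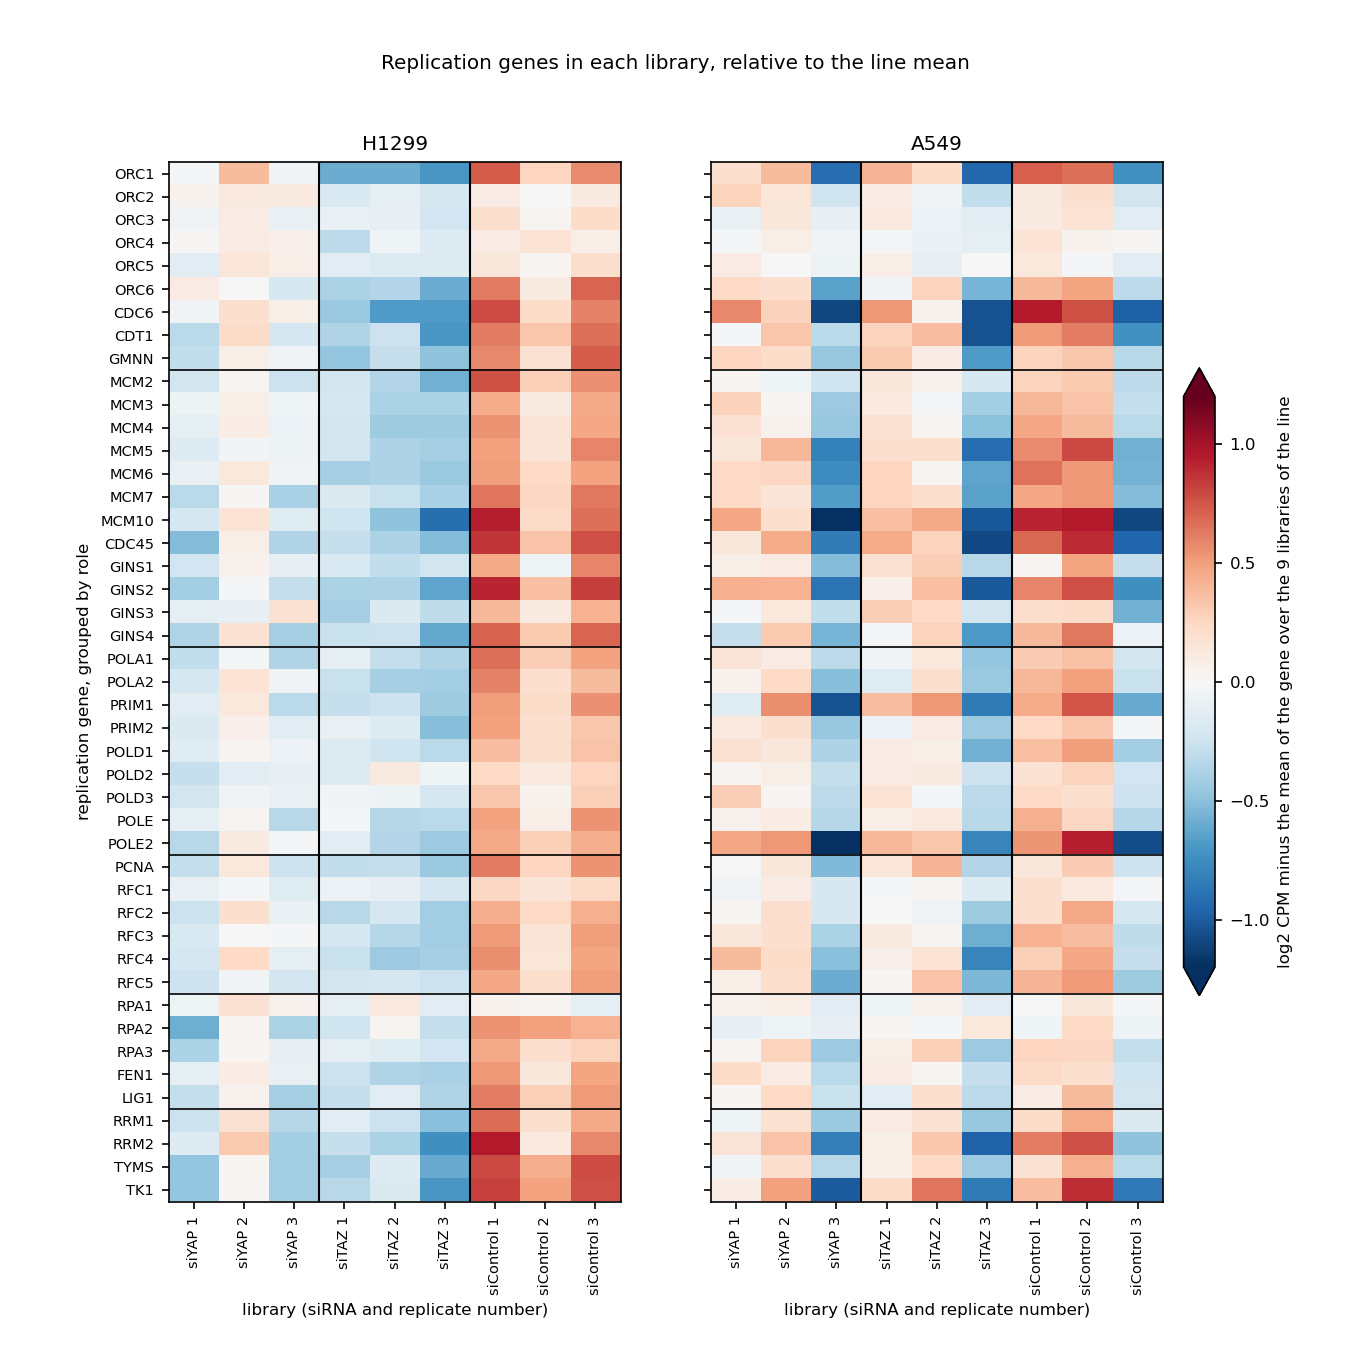
Log2 CPM of each replication gene (y axis, grouped by role) in each library (x axis) minus the mean of that gene over the 9 libraries of its line, from blue (below) to red (above), with H1299 on the left and A549 on the right. In H1299 the siControl libraries are the red ones, and in A549 replicate 3 is blue in all 3 groups.

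In A549, 11 of 12 helicase genes fell after siYAP and 9 of 12 after siTAZ, 3 of 4 nucleotide supply genes fell after each, and strand binding and ligation held 0 of 5 after siYAP (2 at an unadjusted p below 0.05, 0 by DESeq2) and 1 of 5 after siTAZ. MCM6 had 42.8, 43.2 and 21.6 CPM after siYAP, 43.4, 36.97 and 23.4 CPM after siTAZ and 57.1, 52.1 and 24.5 CPM in siControl, lower than siControl in each pair, and fell by 0.30 ± 0.059 and 0.36 ± 0.059 (edgeR adjusted p = 0.00123 and 3.12e-05). MCM10 had the largest fall of the helicase genes after siYAP, by 0.61 ± 0.11, and MCM5 after siTAZ, by 0.46 ± 0.059. GINS1 fell after siYAP (-0.26 ± 0.077, edgeR adjusted p = 0.0402) and did not pass after siTAZ (-0.065 ± 0.076, edgeR adjusted p = 0.658), with 15.01, 15.3 and 9.95 CPM after siYAP, 16.2, 17.5 and 11.3 CPM after siTAZ and 14.5, 19.9 and 11.8 CPM in siControl, and the siYAP call was lost under 9 of the other settings, DESeq2 among them. GINS2 had 11.04, 11.03 and 4.46 CPM after siYAP, 8.59, 10.6 and 4.10 CPM after siTAZ and 12.3, 14.1 and 4.95 CPM in siControl, and fell by 0.29 ± 0.089 and 0.43 ± 0.092. GINS3 had log2 fold changes of -0.059 after siYAP and 0.10 after siTAZ, and neither passed.

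Of the licensing genes in A549, CDC6 had 34.3, 27.8 and 10.8 CPM after siYAP, 32.9, 23.7 and 11.1 CPM after siTAZ and 44.6, 39.1 and 11.6 CPM in siControl, and fell by 0.41 ± 0.068 and 0.51 ± 0.069 (edgeR adjusted p = 0.000159 and 1.25e-06). Each knockdown library was below the siControl library of its number. ORC1 had 8.49, 9.66 and 3.95 CPM after siYAP, 9.81, 8.62 and 3.85 CPM after siTAZ and 12.2, 11.7 and 4.49 CPM in siControl, and fell by 0.32 ± 0.095 and 0.35 ± 0.10. CDT1 and ORC6 fell after siTAZ, by 0.28 ± 0.10 and 0.28 ± 0.087. GMNN and ORC2 to ORC5 passed in neither comparison, with log2 fold changes between -0.16 and 0.02.

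In nucleotide supply, RRM2 fell by 0.43 ± 0.053 after siYAP and 0.49 ± 0.053 after siTAZ, with the smallest adjusted p of the 45 in both (edgeR adjusted p = 1.52e-06 and 1.26e-08). RRM1 fell by 0.26 ± 0.047 and 0.23 ± 0.046, with 58.2, 68.5 and 44.1 CPM after siYAP, 64.3, 67.8 and 44.03 CPM after siTAZ and 70.1, 81.8 and 53.5 CPM in siControl. TK1 had 43.7, 57.7 and 20.5 CPM after siYAP, 47.8, 63.8 and 22.8 CPM after siTAZ and 53.1, 75.9 and 22.6 CPM in siControl. It fell by 0.32 ± 0.053 after siYAP and 0.17 ± 0.051 after siTAZ, and the siTAZ call was lost under 7 of the other settings, DESeq2 (-0.16) among them. TYMS did not pass after siYAP (-0.17 ± 0.056, edgeR adjusted p = 0.0636) or siTAZ (-0.15 ± 0.056, edgeR adjusted p = 0.0674), with 30.3, 35.8 and 24.8 CPM after siYAP, 32.8, 36.8 and 23.04 CPM after siTAZ and 35.4, 41.8 and 24.97 CPM in siControl.

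Among polymerase genes in A549, POLA2 had 14.3, 16.3 and 9.66 CPM after siYAP, 12.5, 15.7 and 10.1 CPM after siTAZ and 18.2, 19.4 and 11.5 CPM in siControl and fell by 0.28 ± 0.074 and 0.34 ± 0.075. POLA1 had 17.9, 17.3 and 12.98 CPM after siYAP, 15.7, 17.5 and 11.6 CPM after siTAZ and 19.8, 20.5 and 13.8 CPM in siControl, did not pass after siYAP (-0.19) and fell by 0.27 ± 0.07 after siTAZ. POLD1, the catalytic subunit of polymerase delta, fell by 0.23 ± 0.062 and 0.33 ± 0.063, and POLE by 0.19 ± 0.056 and 0.17 ± 0.056. Loader genes RFC2, RFC3, RFC4 and RFC5 fell after siTAZ, by 0.34 ± 0.074, 0.32 ± 0.077, 0.33 ± 0.082 and 0.23 ± 0.073, and RFC5 also after siYAP, by 0.29 ± 0.073. LIG1 fell after siTAZ (-0.17 ± 0.048, edgeR adjusted p = 0.0133), while FEN1 (-0.077 and -0.12), with 43.2, 39.5 and 29.7 CPM after siYAP, 39.8, 37.7 and 30.8 CPM after siTAZ and 43.7, 42.4 and 31.5 CPM in siControl, and RPA1 (-0.044 and -0.082) passed in neither.

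In A549, siYAP and siTAZ differed in these genes no more often than over all genes, and only PCNA passed the test between them. It stood at 233, 254 and 161 CPM in siYAP, 256, 307 and 181 CPM in siTAZ and 255, 287 and 195 CPM in siControl libraries, and in each numbered pair siYAP was below siTAZ. It fell after siYAP (-0.19 ± 0.042, edgeR adjusted p = 0.00313) and had a log2 fold change of 0.0062 ± 0.041, edgeR adjusted p = 0.948, after siTAZ. Directly compared, it was the 1 of 45 that was lower in siYAP than in siTAZ (-0.20 ± 0.041, edgeR adjusted p = 0.0013), where 4.52% of all genes were, and 0 of 45 were higher (3 at an unadjusted p below 0.05, 0 by DESeq2), where 2.52% were. The call was lost without siYAP 2, without siTAZ 2, without all libraries numbered 2 and without the block, at -0.20 to -0.15. TK1 (-0.15 ± 0.053, edgeR adjusted p = 0.0816), ORC2 (0.14 ± 0.053, edgeR adjusted p = 0.122), GINS1 (-0.19 ± 0.078, edgeR adjusted p = 0.147) and RFC2 (0.17 ± 0.075, edgeR adjusted p = 0.2) were next by p and did not pass. RFC2 had 15.9, 17.96 and 13.7 CPM in siYAP and 15.7, 15.2 and 11.7 CPM in siTAZ libraries, ORC2 had 48.1, 44.1 and 33.8 CPM in siYAP and 42.5, 38.9 and 32.5 CPM in siTAZ libraries, and these ranges overlapped. Without overlap, siYAP was below siTAZ for 1 of 45, RPA2, where 4.06% of all genes were. The median over the 45 was 0.03, against 0.00083 over all genes.

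The difference between lines was tested as an interaction over 15816 genes listed in both tables and passing the low-count filter over all 18 libraries. After siTAZ, 16 of 45 had a more negative fold change in H1299 than in A549 and 0 a less negative one, where 3.24% of all genes had a lower and 2.73% a higher value, and the median difference was -0.49. The 5 with the smallest p were PCNA (-0.83 ± 0.14, edgeR adjusted p = 0.00382), TYMS (-0.91 ± 0.18, edgeR adjusted p = 0.00773), TK1 (-0.95 ± 0.18, edgeR adjusted p = 0.0073), MCM2 (-0.83 ± 0.16, edgeR adjusted p = 0.00902) and FEN1 (-0.61 ± 0.13, edgeR adjusted p = 0.0113). MCM2 had 48.8, 45.97 and 38.9 CPM in A549 siTAZ and 53.4, 55.03 and 35.7 CPM in A549 siControl libraries and did not pass there. After siYAP, 2 of 45 differed, TYMS (-0.79 ± 0.18, edgeR adjusted p = 0.0268) and LIG1 (-0.58 ± 0.14, edgeR adjusted p = 0.0363), where 1.31% of all genes had a lower and 0.955% a higher value. LIG1 had 48.1, 55.7 and 39.2 CPM in A549 siYAP and 50.3, 61.4 and 40.6 CPM in A549 siControl libraries, which overlapped. TK1 (-0.68 ± 0.18, edgeR adjusted p = 0.0531), POLA1 (-0.54 ± 0.15, edgeR adjusted p = 0.0599) and GINS2 (-0.70 ± 0.20, edgeR adjusted p = 0.064) came next.

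For siYAP against siTAZ, ORC1 differed between the lines (0.74 ± 0.19, edgeR adjusted p = 0.0361), the 1 of 45 that did, where 1.49% of all genes had a higher and 1.71% a lower value. With a block for the replicate number in both lines, the counts were 27 after siTAZ, 10 after siYAP and 3 between knockdowns (ORC1, CDC6 and PCNA). With no block in either line they were 0, 0 and 0 (9, 5 and 0 at an unadjusted p below 0.05 in that direction). They were also 0 in each without all libraries numbered 1 and without all numbered 3, and 33, 20 and 3 without all numbered 2. The share of all genes called was not taken under these settings, so these counts have no background to set them against. The median differences held their signs in all of these, at -0.67 to -0.41 after siTAZ, -0.46 to -0.14 after siYAP and 0.13 to 0.24 between knockdowns.

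In control cells, the level of these genes differed between the lines, though the tables were scaled separately and no test was made. CPM was higher in all 3 H1299 siControl libraries than in all 3 A549 siControl libraries for 38 of 45 genes, overlapped for 6 and was higher in A549 for 1, PCNA, at 100.4 ± 12.9 CPM in H1299 and 246 ± 46.8 CPM in A549 (SD, n = 3 each). The median ratio of H1299 over A549 was 3.23, and it was 8.63 for CDC45 and 1.03 for ORC4. The share of all genes apart between the lines, and their median ratio, were not taken. These values therefore have no background to set them against. Per kb of exon, MCM7 led in H1299 siControl cells at 146 ± 21.5 CPM per kb, above PCNA at 68.3 ± 8.74 without overlap, and GINS1 (2.98 ± 0.658) and GINS3 (2.11 ± 0.239) were lowest. In A549 siControl cells, PCNA led at 167 ± 31.8 CPM per kb, apart from POLD2 at 27.2 ± 4.76, and PRIM2 (1.36 ± 0.165) and POLE2 (1.03 ± 0.591) were lowest, with overlapping ranges. Most neighbours in these orders overlapped.

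Other replication genes, 49 in lists of origin firing, fork and loader, chromatin assembly and nucleotide supply, also moved mostly down. In H1299, 26 of 49 fell and 2 rose after siYAP (median -0.39), where 8.75% of all genes tested fell and 7.89% rose. After siTAZ, 36 fell and 1 rose (median -0.53), where 12.4% of all genes fell and 10.9% rose. In A549, 12 fell and 0 rose after siYAP (median -0.14), where 3.17% of all genes fell and 2.5% rose. After siTAZ in A549, 19 fell and 0 rose (median -0.15), where 6.12% of all genes fell and 7.21% rose. After siYAP in H1299, DUT, which clears dUTP, had 43.9, 59.6 and 44.3 CPM against 89.7, 79.7 and 88.6 CPM in siControl (-0.81 ± 0.11, edgeR adjusted p = 0.00114). DTYMK, thymidylate kinase, had 37.5, 49.2 and 39.6 CPM against 73.1, 61.4 and 81.6 CPM (-0.77 ± 0.12, edgeR adjusted p = 0.00191), and DBF4, the activator of the CDC7 kinase, 27.5, 35.4 and 26.3 CPM against 48.3, 44.3 and 51.5 CPM (-0.69 ± 0.12, edgeR adjusted p = 0.00257). All 3 were below siControl without overlap. After siTAZ in H1299, CTPS1, a CTP synthase, had 106, 99.5 and 93.7 CPM against 179, 141 and 164 CPM in siControl (-0.69 ± 0.094, edgeR adjusted p = 0.000639). RECQL4, a helicase of origin firing, had 39.6, 34.9 and 28.1 CPM against 82.7, 61.4 and 73.1 CPM (-1.08 ± 0.16, edgeR adjusted p = 0.000942), and both were below siControl without overlap. The genes that rose in H1299 were TK2, the mitochondrial thymidine kinase (0.59 ± 0.16 after siYAP and 0.97 ± 0.16 after siTAZ), and SAMHD1, which degrades dNTPs (0.34 ± 0.08 after siYAP), both named after their values were seen.

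In A549, TOP2A, a topoisomerase that untangles replicated DNA, had 235, 299 and 125 CPM after siYAP against 297, 336 and 153 CPM in siControl (-0.25 ± 0.043, edgeR adjusted p = 0.000171). MCM8, an MCM-like helicase, had 30.1, 33.2 and 18.2 CPM after siYAP and 28.1, 32.3 and 16.9 CPM after siTAZ against 35.1, 42.1 and 22.8 CPM (-0.31 ± 0.056, edgeR adjusted p = 0.000402 and -0.38 ± 0.056, edgeR adjusted p = 5.54e-06). TOP1, a topoisomerase that relieves twist ahead of the fork, had 102, 93.1 and 80.3 CPM after siYAP against 109.8, 108 and 95.1 CPM in siControl (-0.19 ± 0.042, edgeR adjusted p = 0.00457). The ranges of these genes overlapped siControl, and each knockdown library given here was below the siControl library of its number. IMPDH2, of guanine nucleotide synthesis, had 91.1, 97.2 and 90.98 CPM after siTAZ against 113, 119 and 115 CPM in siControl without overlap (-0.31 ± 0.041, edgeR adjusted p = 8.35e-07), and CTPS1 had 46.6, 38.7 and 31.1 CPM against 49.8, 52.4 and 41.1 CPM (-0.32 ± 0.058, edgeR adjusted p = 9.81e-05).

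In GENCODE release 29, other genes overlapped 24 of the 45, 18 of them on the opposite strand, among them RPA1, LIG1, MCM2, MCM7, TYMS, FEN1 and RRM1, and 8 had named pseudogene copies, among them PCNA, TYMS, FEN1 and RRM2. The strand setting of the counting is unknown, so reads from a stretch shared with a gene on the opposite strand may have gone to either gene. Whether exons overlapped, and how many reads came from shared stretches, was not tested.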

How the data were processed

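The 45 genes and the comparison lists were chosen with earlier results of these data known. Per the submitters' processing notes, the tools were cutadapt, STAR 2.4.2a and DESeq2, with GRCh38 as build. The authors deposited 1 table for each line, which held raw counts by gene symbol, beside a normalized signal, log2 values, log2 fold changes and p-values. Only the counts were tested. How reads were assigned to genes, with which annotation and strand setting, is not given in the sources used here. Each deposited normalized signal equalled the count times 1 constant per library. The authors' deposited table gave adjusted p-values below 0.05 and lower values for 37 of the 45 genes in H1299 siYAP, 41 in H1299 siTAZ, 9 in A549 siYAP and 13 in A549 siTAZ. A DESeq2 refit came within 0.001 of the values in the authors' deposited table for log2 fold change in 100% of genes in H1299 with no batch term and 99.99% in A549 when replicate number entered as batch, so the block was part of the A549 fit here and not of the H1299 fit.

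After filterByExpr by group and TMM scaling, the quasi-likelihood test of edgeR 4.0.16 (R 4.3.3) was run over the 9 libraries of a line (15775 genes tested in H1299, 16008 in A549), with Benjamini-Hochberg adjustment over all genes tested and calls below 0.05. Line differences were interaction terms in a joint fit of the 18 libraries. SE is that of the log2 fold change, taken as its size over the square root of F. The tests were run on simulated counts with known changes. Libraries with the same replicate number deviated together, with correlations of log CPM deviations (prior count 2) of 0.11 to 0.38 in H1299 and 0.38 to 0.73 in A549. Libraries with different numbers had -0.32 to 0.16 in H1299, where the 2 ranges overlapped, and -0.55 to 0.28 in A549, where they did not. All same-number values were above 0.1, less clearly apart from the others in H1299. Deviations were taken from group means, so different-number values tend to lie below 0 where same-number values lie above it. In A549 the numbers were taken to pair libraries. In the main H1299 fit they were not used, and the block there was an alternative. Replicates were no copies of each other (chi-square per degree of freedom 5.97 to 27.5). Alternatives were DESeq2 1.42.0, RLE size factors, library totals alone, no filter on low counts, the block added or removed, the compared groups alone, and each library or replicate number left out. The genes given with every value were, per role, those with the smallest and the largest p in H1299 siTAZ, the 5 with the smallest p in each siYAP against siTAZ comparison and in each line difference, and 3 per comparison from the other replication lists, of which 1 is not reported here.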

Additional observations from a re-analysis of the deposited data

Results flagged for a closer look

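The following genes had a response that differed between the lines by the interaction test in edgeR (adjusted p below 0.05), given as the H1299 minus the A549 log2 fold change. After siTAZ the differences were -0.95 for TK1, -0.91 for TYMS, -0.83 for PCNA, -0.83 for MCM2, -0.82 for ORC1, -0.76 for GMNN, -0.76 for GINS2, -0.73 for GINS3, -0.70 for CDC6, -0.66 for ORC6, -0.63 for RPA2, -0.61 for FEN1, -0.58 for MCM7, -0.56 for LIG1, -0.49 for MCM6 and -0.48 for MCM4. By role these are 4 licensing, 6 helicase, 1 clamp, 3 strand binding and ligation and 2 nucleotide supply genes, and 0 of the 9 polymerase genes (4 of them at an unadjusted p below 0.05). GINS3 and PCNA had A549 values of 0.10 and 0.0062 that did not pass. The difference for PCNA comes close to its H1299 change, and that for GINS3 is larger in size than its H1299 change.

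After siYAP the differences were -0.79 for TYMS and -0.58 for LIG1. For siYAP against siTAZ the difference was 0.74 for ORC1. In the level summed over the 45 genes, H1299 siControl 2 was the lowest of its group and A549 replicate 3 the lowest of each A549 group. Without all libraries numbered 1 or all numbered 3 none of the 19 differences passed, with 25 and 12 of the 45 genes at an unadjusted p below 0.05 after siTAZ. The part of these libraries in the differences was not tested further.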

How the results depend on the processing

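Relative to siControl, the median of the 45 genes kept its sign under every alternative run. RLE size factors, library totals alone and no filter on low counts left every count within 1.5 times. DESeq2 called 5 genes higher in H1299 siYAP against siTAZ, 10 lower in A549 siYAP, 13 lower in A549 siTAZ, and 7 and 2 in the line differences after siYAP and between knockdowns. The replicate block raised the H1299 siYAP against siTAZ count to 10, and in both lines gave 10, 27 and 3 line differences after siYAP, after siTAZ and between knockdowns. Without the replicate block, the A549 counts were 0 after siYAP, 0 after siTAZ and 0 between knockdowns, and the line differences 0, 0 and 0. Fitting only the 2 groups compared gave 2 lower and 1 higher in A549 siYAP against siTAZ. The block changed no other count by over 1.5 times. The share of all genes called was taken for the main fits only, so counts under the alternatives have no background.

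With libraries left out in turn, the counts lower ran from 0 to 40 in H1299 siYAP, 6 to 44 in H1299 siTAZ, 4 to 24 in A549 siYAP, 7 to 27 in A549 siTAZ and 0 to 1 in A549 siYAP against siTAZ, and the count higher from 0 to 8 in H1299 siYAP against siTAZ. The line differences ran from 0 to 20 after siYAP, 0 to 33 after siTAZ and 0 to 3 between knockdowns. Fewer libraries and residual degrees of freedom entered those fits. Values near 0 that had not passed changed sign. RPA1 in H1299 siTAZ had 0.042 with library totals alone and -0.099 to 0.038 with libraries left out. ORC5 in A549 siTAZ had 0.0043 without the replicate block and -0.057 to 0.045 with libraries left out. With libraries left out, PCNA and GINS1 in A549 siTAZ had -0.046 to 0.055 and -0.16 to 0.073, and ORC5 in A549 siYAP had -0.012 to 0.044. The cause was not tested. Depth limits POLE2, CDC45, MCM10 and PRIM1 most, which had the lowest counts.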

Other observations

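Genes with and without an E2F word in the promoter had medians close to each other. The 18 genes with a match had a median log2 fold change of -0.49 after siYAP and -0.75 after siTAZ in H1299, and the 21 with a promoter and no match had -0.42 and -0.72. In A549 the medians were -0.21 after siYAP and -0.25 after siTAZ for genes with a match, and -0.19 and -0.23 for genes without. These are descriptions over genes chosen together, with no test, and ORC1, with the largest siYAP against siTAZ difference in H1299, had no match in the window searched.

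The genes with the lowest A549 replicate 3, MCM10, CDC6, POLE2 and CDC45 (-1.40), TK1 (-1.35) and GINS2 (-1.30), had a log2 CPM lower in replicate 3 than in the mean of the others by more than any of the 45 fell after either knockdown in that line.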
